A study of Homo sapiens with 4 samples.

Results

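The replication-dependent histone genes encode the canonical histones H1, H2A, H2B, H3 and H4. They were chosen by symbol, as rows named H1-1 to H1-6, H2AC, H2BC, H3C or H4C with a number, or H4-16, with pseudogenes omitted. Of the 60671 genes in the deposited table, 79 matched this naming, 12 of these were pseudogenes, and 67 genes remained. They comprised 6 genes for the linker histone H1, 16 for H2A, 17 for H2B, 13 for H3 and 15 for H4. In RefSeq (GRCh38.p14), 55 lay on chromosome 6, 11 on chromosome 1 and 1, H4-16, on chromosome 12.

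The 4 libraries were made from H9, an established line of human embryonic stem cells, grown in mTeSR medium without treatment. The 2 control libraries carry only the genotype label control. The study uses both plain H9 cells and clones given an empty editing vector, called mock, as controls. For its RNA-seq of the overexpressing cells it names a mock control, written in a figure legend as mock (m+OE). The labels do not say which of these the libraries are. The 2 other libraries came from H9 cells with an edited CFIm25 gene that also overexpress 3Flag-CFIm25, hereafter KO+OE. In the labels the edit is a knockout for the samples and a knockdown for the series. The study describes a clone whose residual protein lacks part of its N-terminus, with the tagged protein delivered by lentivirus. By western blot, it found the re-expressed protein at about the endogenous level. CFIm25, encoded by NUDT21, belongs to a complex that guides where a new mRNA is cut and given its poly(A) tail. All libraries were made from poly(A)-selected RNA, so a transcript without a tail can enter only to the extent that selection is incomplete. No label says that replicates were separate cultures, so the p-values measure the spread between these libraries, which may be technical.

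Most mRNAs end in a poly(A) tail added after cleavage. The mRNAs of replication-dependent histones end instead just past a short RNA hairpin, the histone stem-loop, which SLBP binds and downstream of which the U7 snRNP directs the cut. These genes are expressed mainly in S phase to package newly copied DNA. Many genes of replacement histones, such as H2AZ1 and H3-3A, are instead active through the cell cycle and make ordinary polyadenylated mRNAs.

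The hairpin was the sequence feature the genes shared. GENCODE release 44 transcripts were found by Ensembl identifier for 61 members, and all 61 held a stem of 6 bases on each side closing a loop of 4 bases. The transcript ends are shown for the members whose values are described most closely below, as DNA letters from 5′ to 3′. Capitals mark both sides of the stem, and lower case marks the loop and the flanking bases, the last of which is the annotated transcript end except in H2BC21.
H2BC12: ccaaaGGCTCTtttaAGAGCCactta
H4C12: caaaaGGCCCTttttAGGGCCccca
H4C11: taaaaGGCCCTtttcAGGGCCacccta
H1-2: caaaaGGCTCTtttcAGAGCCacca
H1-1: ccaacGGCTCTtttaAGAGCCaccta
H2AC20: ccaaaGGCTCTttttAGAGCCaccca
H4C8: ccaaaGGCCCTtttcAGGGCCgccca
H2BC13: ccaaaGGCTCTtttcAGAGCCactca
H3C7: ccaaaGGCTCTtttcAGAGCCacc
H2BC21: ccaaaGGCTCTtttcAGAGCCacccacc
The commonest hairpin, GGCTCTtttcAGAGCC, stood in 35 members, of which 0 encoded H4. Stems of GGCCCT with AGGGCC were an H4 feature, with the loop tttc in 8 members and the loop tttt in 4, all of them H4 genes. A further 8 members, none of them H4 genes, held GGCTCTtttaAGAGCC, and 6 other hairpins stood in 1 member each. H4C11 and H4C12 differ in this loop, with tttc in the former and tttt in the latter. The transcript of H2BC21 continued for 1729 bases past its hairpin, while those of H2BC12, H4C12, H4C11 and H1-2 ended 4 to 6 bases past it.

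The libraries matched their cell type label. The pluripotency factor POU5F1 stood at 2164 to 2212 TPM, the RNA-binding protein LIN28A at 517 to 528 TPM, SOX2 at 18.2 to 19.4 TPM and NANOG at 15.9 to 19.9 TPM. TPM scales the reads of a gene by its length and by the library total. The unit was inferred from the values, so setting levels of different genes side by side assumes that lengths were scaled. The 7 markers of endoderm, mesoderm and neural cells stood at or under 0.32 TPM in every library. The edited gene, NUDT21, was at 161 and 152 TPM in control, against 162 and 157 TPM in KO+OE, with a log2 fold change of 0.03 and an adjusted p = 0.980 (limma, Benjamini-Hochberg). NUDT21 RNA therefore did not separate the groups. Column totals ran from 986853 to 987078 TPM, and the values carry no read counts, so the depth behind any low value is unknown.

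Replication-dependent histone RNA was listed at low levels, and most of it came from a few genes. Of the 67 genes, 51 had a value above 0 in at least 1 library, 25 in all 4 libraries and 16 in none. The number above 0 was 39 in each control library, and 42 and 37 in the KO+OE libraries. Only 7 members had a mean of at least 1 TPM over the 4 libraries, which is 10.4% of the members, beside 55.5% of the 18837 other protein-coding genes matched to RefSeq by symbol. The median of the means was 0.168 TPM for the members and 1.60 TPM for those other genes. In all, 50 members stayed under 1 TPM in every library. A listed 0 says only that no value was recorded, at a depth that is unknown.

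The linker histone genes were the most regularly listed. Of 6 H1 genes, 5 were above 0 in all 4 libraries, and the exception, the testis histone H1-6, was listed at 0 throughout. Above 0 in all 4 libraries were 6 of 16 H2A genes, 7 of 17 H2B genes, 3 of 13 H3 genes and 4 of 15 H4 genes. H3 was the class with no member reaching a mean of 1 TPM.

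**Figure D1:**
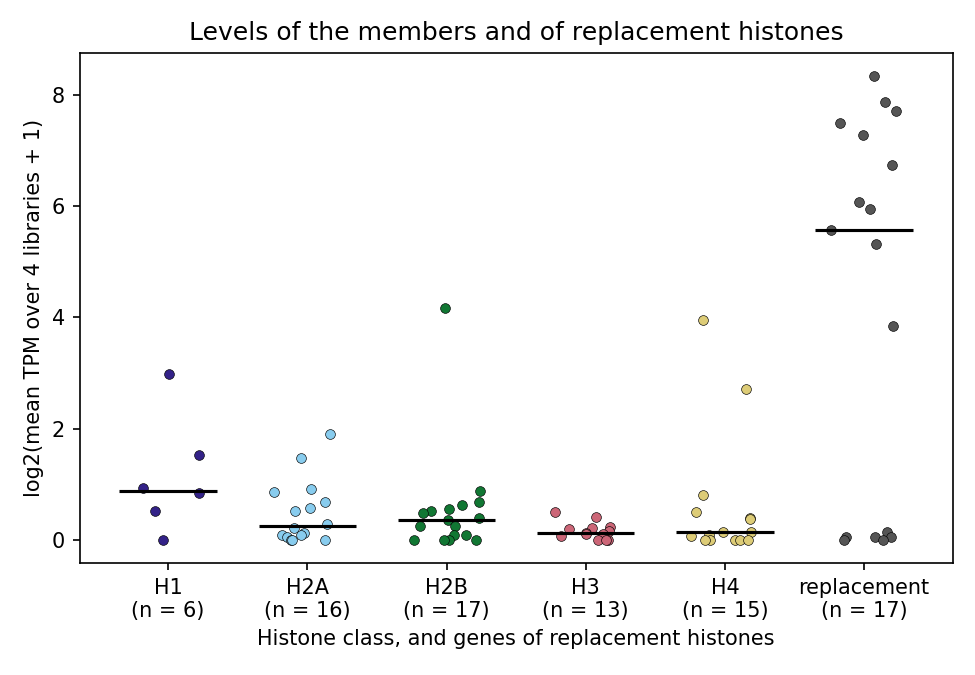
Mean level over the 4 libraries of each replication-dependent histone gene by class and of the 17 genes of replacement histones, as log2(mean TPM + 1), with 1 point per gene and a line at the median. In each of the 5 classes the median gene lies under 1 TPM, a single gene or a pair stands far above its class in H1, H2B and H4, and 11 of the 17 replacement genes lie above nearly all members.

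The highest member was H2BC12 (ENSG00000197903, chr6:27138293-27146858 in RefSeq GRCh38.p14), which encodes a core histone H2B. It stood at 14.3 and 20.8 TPM in control, against 16.7 and 15.98 TPM in KO+OE. The KO+OE libraries lay between the control libraries, so the groups overlapped. The log2 fold change, KO+OE minus control on the scale log2(TPM + 1), was -0.08 (95% confidence interval -0.53 to 0.38), with an adjusted p = 0.988 (limma, Benjamini-Hochberg).

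H1-2 (ENSG00000187837, chr6:26055740-26056470), a linker histone that binds DNA between nucleosomes, was the most even of the abundant members. It was listed at 7.42 and 6.95 TPM in control, against 6.86 and 6.46 TPM in KO+OE. Both KO+OE libraries were below both control libraries, by a margin smaller than the gap within either group. The log2 fold change was -0.10 (95% confidence interval -0.35 to 0.16, limma), with an adjusted p = 0.960.

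The 2 most abundant H4 rows exchanged their values in 1 library. H4C12 (ENSG00000273542, chr6:27831174-27831560) was listed at 19.7 and 18.5 TPM in control, at 19.5 TPM in KO+OE replicate 1 and at 0.13 TPM in KO+OE replicate 2. H4C11 (ENSG00000197238, chr6:27824092-27824480) read 0 in the control libraries and in KO+OE replicate 1, and at 22.1 TPM in KO+OE replicate 2. KO+OE replicate 2 thus stood apart for both genes and in opposite directions, while the other 3 libraries were alike. Summed, the pair held 19.7 and 18.5 TPM in control, against 19.5 and 22.2 TPM in KO+OE, and no library stood apart in the sum. The transcripts of the pair, 389 and 387 bases long, were identical at 99.0% of aligned bases and shared an unbroken run of 362 bases, against at most 43 bases between either of them and any other H4 transcript compared. The reads are 150 bases long at each end, so the value of either row alone is uncertain. Whether the exchange reflects the assignment of reads was not tested.

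The fitted fold changes of the pair followed that library. H4C11 had a log2 fold change of 2.26 (95% confidence interval -1.44 to 5.97) and H4C12 one of -2.06 (-5.46 to 1.34), each with an adjusted p = 0.938 (limma). With KO+OE replicate 2 left out, these values were 0 and 0.03. They became 4.53 and -4.15 when KO+OE replicate 1 was left out. Across the whole table, 32 rows were above 10 TPM in 1 library and under 1 TPM in the other 3, and 3 rows showed the converse.

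The remaining members at a mean of 1 TPM or more were H2AC19, H1-1 and H2AC20. H2AC19, a core histone H2A gene, was listed at 1.65 and 5.56 TPM in control, against 1.56 and 2.13 TPM in KO+OE. H1-1, another linker histone, stood at 1.54 and 1.61 TPM in control, against 1.43 and 2.99 TPM in KO+OE. H2AC20, also an H2A gene, stood at 1.15 and 1.72 TPM in control, against 1.09 and 3.13 TPM in KO+OE. Each owed its range to a single high library, control replicate 2 for H2AC19 and KO+OE replicate 2 for H1-1 and H2AC20, and the groups overlapped for all of them. Their log2 fold changes were -0.56, 0.27 and 0.28, with adjusted p-values of 0.948, 0.959 and 0.968 (limma, Benjamini-Hochberg). For each row taken alone the high library set the sign, since the values without it were 0.10, -0.08 and -0.21. H2AC19 and H2AC18 are duplicate genes of H2A on chromosome 1, and their summed level, examined after the values were seen and not tested, was 3.52 and 5.56 TPM in control, against 1.56 and 2.20 TPM in KO+OE. Both KO+OE libraries were below both control libraries in this sum.

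**Figure D2:**
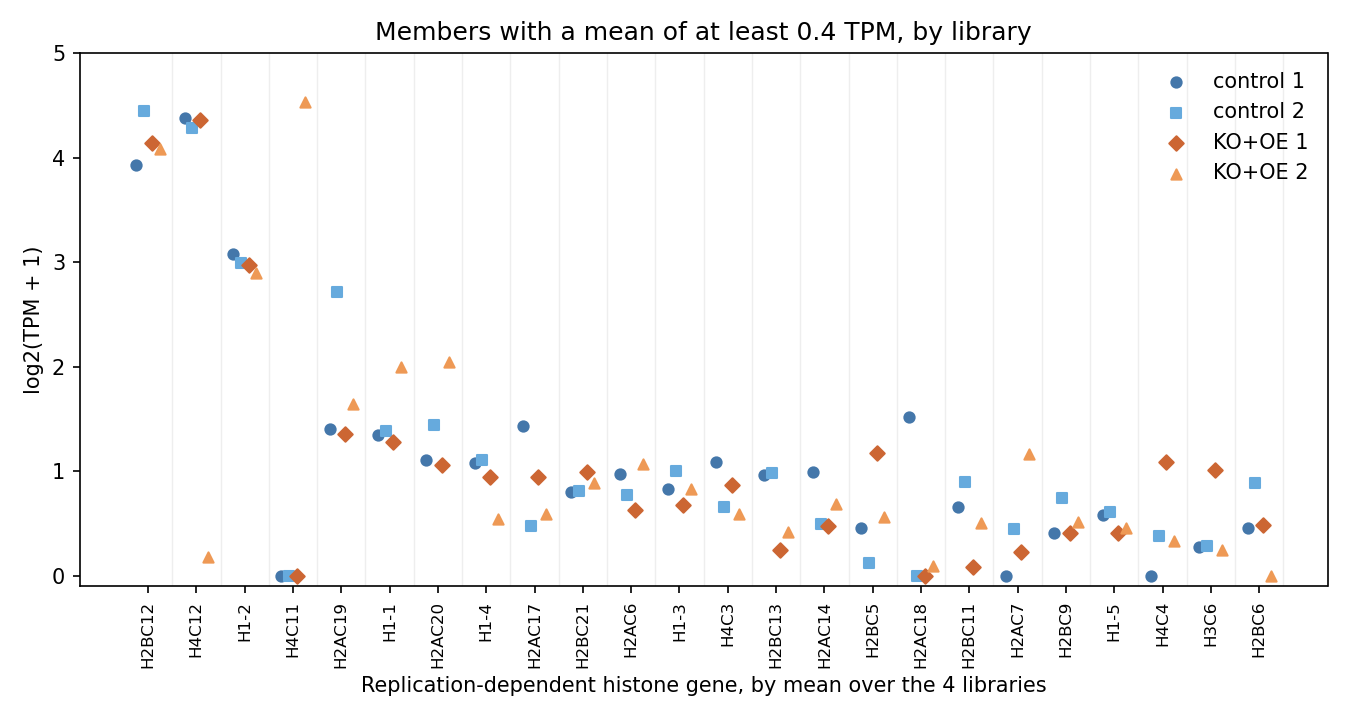
Level of each member with a mean of at least 0.4 TPM in each library, as log2(TPM + 1), with circles and squares for control replicates 1 and 2 and diamonds and triangles for KO+OE replicates 1 and 2. The triangle of KO+OE replicate 2 is near 0 for H4C12 and at the top for H4C11, and for most other members the groups interleave.

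Members under 1 TPM on average were mostly scattered between libraries. The highest of them were H1-4 at 1.11, 1.16, 0.93 and 0.46 TPM, H2AC17 at 1.70, 0.39, 0.93 and 0.51 TPM, and H2BC21 at 0.74, 0.75, 0.99 and 0.85 TPM, in the order control replicates 1 and 2, then KO+OE replicates 1 and 2. H2BC21, whose annotated transcript runs far past the hairpin, varied least of these and was higher in both KO+OE libraries, while H1-4 was lower in both. H2AC18, listed at 1.87 TPM in control replicate 1, stood at 0 in control replicate 2 and KO+OE replicate 1 and at 0.07 TPM in KO+OE replicate 2. H3C14 and H3C15 carried identical values in every library, from 0.05 to 0.11 TPM, and their transcripts shared a run of 518 bases, so the 2 rows cannot be read as separate measurements. The same holds for H4C14 and H4C15, whose transcripts were identical over all 396 bases, although their rows differed. H4C14 was listed at 0.32, 0.49, 0.38 and 0.03 TPM and H4C15 at 0.32, 0, 0 and 0.08 TPM, in the same order of libraries.

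Low members with the smallest unadjusted p were H2BC13, H4C8 and H3C7. H2BC13, an H2B gene, was listed at 0.95 and 0.98 TPM in control, against 0.19 and 0.34 TPM in KO+OE. H4C8 had 0.18 and 0.26 TPM in control but 0 in both KO+OE libraries, and H3C7 the other way round, with 0 in each control library and 0.18 and 0.49 TPM in KO+OE. In a limma fit without a filter on low values their log2 fold changes were -0.64 (unadjusted p = 0.0088), -0.29 (unadjusted p = 0.0070) and 0.41 (unadjusted p = 0.0374), and each had an adjusted p = 0.873. These 3 were the members at an unadjusted p under 0.05 out of 51, beside 4.88% of the 26942 genes fitted, so their share was near that of all genes.

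Across the members, the groups were not distinguished by more than the spread between replicates. Of the 7 members tested, which had means of 1 TPM or more, 0 were under 0.05 by adjusted p and 0 by unadjusted p (limma), beside 0.00812% and 5.33% of the 12319 genes tested. With 3 higher and 4 lower in KO+OE, their median log2 fold change was -0.08, against -0.01 over all genes tested. H4C11 is among the 3 and passed the filter on low values only through KO+OE replicate 2, and with H4C11 and H4C12 summed to 1 row the median was 0.02, so neither the count nor the median gives the members a direction. Of the 51 members above 0 in at least 1 library, the groups did not overlap in 6 that were higher in KO+OE and 8 that were lower, which is 11.8% and 15.7% of them, beside 12.4% and 15.4% of all 26942 genes. For the 44 of these with a mean under 1 TPM, the shares were 13.6% higher and 15.9% lower. Among all 14623 such genes they were 10.7% and 11.9%, and the difference was not tested. H3C14 and H3C15, which are not separate measurements, both count among the 6. In bulk RNA, fewer cells in S phase and less histone RNA per cell cannot be told apart.

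**Figure D3:**
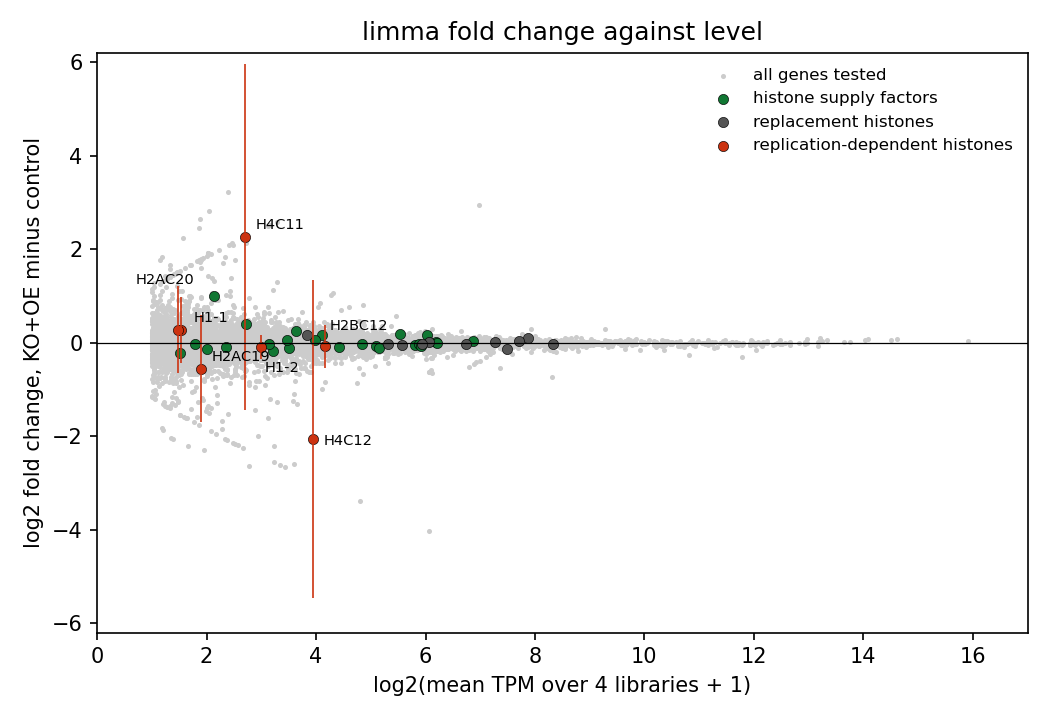
The limma log2 fold change of KO+OE against control by level, as log2(mean TPM + 1), for the 12319 genes tested, with the 7 replication-dependent histone genes in red and lines for their 95% confidence intervals, genes of replacement histones in dark grey and histone supply factors in green. The interval of each red point spans 0, and those of H4C11 and H4C12 are the widest.

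Summed over the 67 members, histone RNA was at 62.4 and 68.1 TPM in control, against 62.8 and 64.6 TPM in KO+OE. The means were 65.3 ± 4.06 TPM and 63.7 ± 1.29 TPM (SD, n = 2 each), and both KO+OE libraries lay between the control libraries. H2BC12, H4C11, H4C12 and H1-2 together made up 66.4% to 69.2% of this sum in every library. The sums are given as a description, without a test.

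By class, H4 was at 22.3 and 20.3 TPM in control, against 22.7 and 23.2 TPM in KO+OE, H2B at 18.5 and 26.2 TPM and then 21.1 and 19.6 TPM, and H1 at 11.4 and 11.2 TPM and then 10.2 and 11.1 TPM. H2A stood at 9.26 and 9.39 TPM in control, against 5.72 and 9.14 TPM in KO+OE. H3 was the smallest class, at 1.05 and 0.96 TPM in control, against 3.11 and 1.5 TPM in KO+OE. The groups overlapped for H2B, while H4 and H3 were higher and H1 and H2A lower in both KO+OE libraries, in each case by less, between the nearest libraries, than the KO+OE libraries differed from each other.

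**Figure D4:**
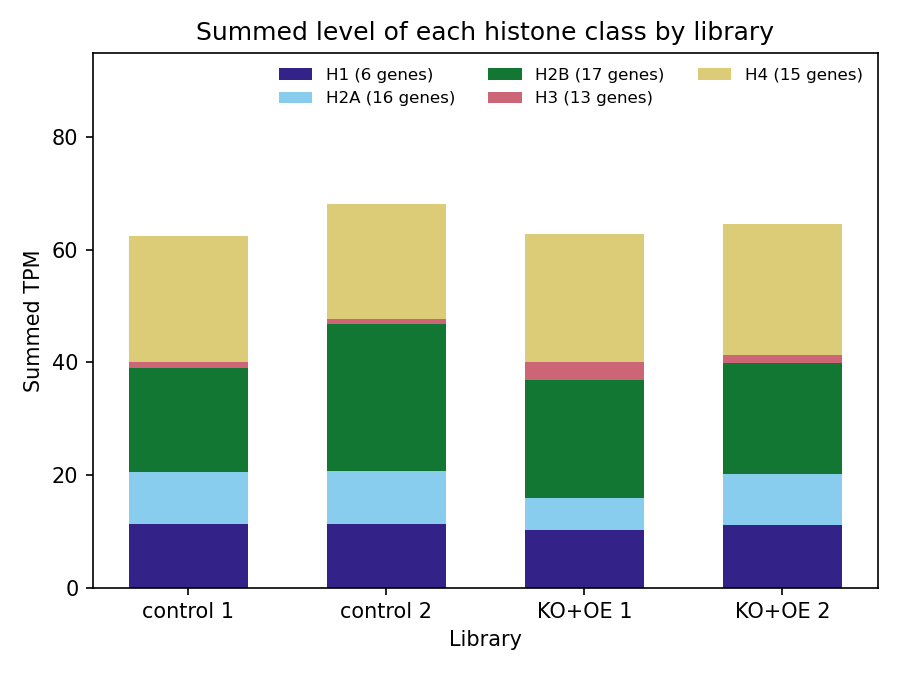
Summed TPM of the replication-dependent histone genes in each library, stacked by class from a baseline of 0. The 4 totals lie between 62.4 and 68.1 TPM, with H4 and H2B the largest blocks and H3 the smallest in every library.

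Replicate spread was uneven among these genes. The median absolute log2 difference between replicates over the 7 members tested was 0.09 in control and 0.72 in KO+OE, against 0.11 in each group over all genes tested. This contrast between the groups rested on H4C11 and H4C12, since the medians without the pair were 0.34 in control and 0.29 in KO+OE over 5 members. All genes with a mean of 1 to 5 TPM had medians of 0.19 in control and 0.18 in KO+OE. For the 44 members above 0 in at least 1 library with a mean under 1 TPM, the medians were 0.24 and 0.26. Over all 14623 such genes they were 0.08 in each group, without matching of levels inside the band. H4C11 and H4C12 differed by 4.53 and 4.18 between the KO+OE libraries. H2AC20 and H1-1 differed by 0.98 and 0.72 there, more than 96.5% and 93.4% of other genes with a mean of 1 to 5 TPM. In control, H2AC19 differed by 1.31, more than 97.9% of genes in that band, and H2BC12 by 0.51, more than 96.2% of genes with a mean of 5 to 50 TPM. H1-2 was the exception, at 0.08 in both groups, less than most genes of its level.

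Judged by GENCODE transcripts alone, another annotated 3′ end did not mark the members with a mean of at least 1 TPM. Of the 61 members with transcripts, 16 had another annotated 3′ end, either 100 or more bases past the hairpin or on a transcript without it, and 45 had the hairpin end alone. The median of the mean levels was 0.295 TPM in the former and 0.122 TPM in the latter. A mean of at least 1 TPM was reached by 0 of the 16 and 6 of the 45, and values above 0 in all 4 libraries by 8 and 16. H2BC12 is among the 6, but its RefSeq span is 8566 bases, against 495 bases for its only GENCODE transcript. RefSeq spans did not enter the split, so the place of H2BC12 in it is uncertain.

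Genes of replacement histones, many of whose mRNAs carry a poly(A) tail, were far more abundant in these poly(A)-selected libraries. The ratios below describe what selection kept, and cannot give the relative amounts of the 2 kinds of RNA in the cells. Their 17 genes summed to 1434 and 1415 TPM in control, against 1429 and 1422 TPM in KO+OE, and the sum of the replication-dependent genes was 4.35% to 4.82% of this. H2AZ1, an H2A variant found at promoters, alone reached 301 to 336 TPM, which is 4.66 to 5.36 times the sum of all 67 members. H3-3B and H3-3A, which both encode H3.3, were at 219 to 246 and 194 to 228 TPM, the linker histone H1-10 at 170.2 to 193 TPM, H2AX, phosphorylated at DNA breaks, at 152 to 158 TPM, and MACROH2A1 at 104 to 109 TPM. Of the 11 tested, 0 were under 0.05 by adjusted p and 1 by unadjusted p (limma), with log2 fold changes from -0.13 to 0.17. Among all 12319 genes tested, 5.33% were under 0.05 by unadjusted p. The gene at that unadjusted threshold was H1-10, at 193 and 182 TPM in control, against 172 and 170.2 TPM in KO+OE (log2 fold change -0.13, unadjusted p = 0.0234, adjusted p = 0.928, limma).

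Factors that make, process and deliver histones gave no adjusted call either. Of 31 such genes, 25 reached the level needed for testing, and 0 were under 0.05 by adjusted p and 2 by unadjusted p (limma). By unadjusted p, 5.33% of all 12319 genes tested were under 0.05. The U7 snRNP subunit LSM10 stood at 109 to 120 TPM, the importin IPO4 at 67.0 to 80.0 TPM, the histone chaperones RBBP7 and RBBP4 at 69.0 to 75.7 and 57.0 to 67.5 TPM, the cleavage scaffold SYMPK at 57.8 to 61.4 TPM and the cap-associated SRRT at 55.8 to 60.6 TPM. The 2 at an unadjusted p under 0.05 were CHAF1A, a subunit of the chromatin assembly factor that deposits new H3 and H4, at 43.8 and 40.8 TPM in control, against 46.9 and 49.8 TPM in KO+OE, and LSM1, which acts in mRNA decay, at 10.2 and 10.5 TPM and then 13.4 and 11.8 TPM. Their log2 fold changes were 0.19 and 0.25, with unadjusted p-values of 0.0292 and 0.0452 and an adjusted p = 0.928 for both (limma). SLBP, which binds the hairpins shown above and was singled out after its values were seen, was at 17.1 and 24.99 TPM in control, against 21.6 and 17.5 TPM in KO+OE, with overlapping groups.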

How the data were processed

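Poly(A)-selected RNA of 4 libraries was sequenced as paired reads of 150 bases. The authors deposited 1 table with a column per library and no unit in its header. Its values were read as TPM because the deposited columns hold decimals and sum to nearly the same total. That does not show that gene lengths were scaled. HISAT2, featureCounts, Subread, DESeq2 and hg38 are named in the submitters' processing notes without roles. How reads that match several genes were counted is not given in the sources used here.

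The scale used was log2(TPM + 1), which understates changes of low genes. The 12319 genes whose mean over the libraries reached 1 TPM were fitted by group alone in limma 3.58.1 (R 4.3.3), with a mean-dependent prior, two-sided, with Benjamini-Hochberg adjustment over all genes tested. The step was tested on simulated data, in 5 runs with 200 changed genes each. Errors were drawn from genes of similar level, which does not keep the spread of a single gene. With fewer changed genes or a wider spread, fewer changes would be recovered. The shares below therefore do not give the chance of a call for a given member. At an adjusted p under 0.05 it recovered 81.4% of 2-fold changes in genes at 10 TPM or more, but 6.95% in lower genes. For 4-fold changes these shares were 99.4% and 54.6%, so a change of a low gene could go uncalled. Hairpins were read from GENCODE release 44 transcripts by Ensembl identifier and positions from RefSeq by symbol, with 1 member matched by an older symbol. Other steps used Python 3.11.15, pandas 2.3.3 and numpy 2.4.6. Alternatives were other pseudocounts (0.1 and 5), another filter (none, or 5 TPM), median-ratio and quantile scaling, no mean-dependent prior, a replicate block, and each library left out. The table held 0 further columns of per-sample values.

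Members, lists and tests were chosen with earlier results of these data known. Genes named are NUDT21, members at a mean of 1 TPM or more, other members with an unadjusted p under 0.05 or above 0 in both libraries of 1 group and neither of the other, the 3 next highest members, the 6 highest genes of each comparison list and those at an unadjusted p under 0.05, and the cell markers. H2AC18, H3C14, H3C15, H4C14, H4C15, SLBP, H2AW, CPSF2 and the pseudogenes were singled out once their values were known.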

Additional observations from a re-analysis of the deposited data

How the results depend on the processing

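In every alternative fitted, 0 members, 0 replacement histone genes and 0 supply factors passed an adjusted p of 0.05 in limma. The number of members at an unadjusted p under 0.05 rose from 0 of 7 to 3 of 51 with no filter. Over all 26942 genes fitted without a filter, the share was 4.88%. For replacement histones this number was 2 after rescaling by median ratios and after quantile normalization, and 0 without the mean-dependent prior. For supply factors it rose from 2 to 3 with no filter, after rescaling by median ratios and after quantile normalization. It was 1 with a pseudocount of 5 and 0 without the mean-dependent prior. With a library left out, the lone library of a group is assumed to vary like the other group, so only effect sizes are given for those fits below. The replicate numbers did not pair the libraries, since the deviations of same-numbered libraries correlated at -0.05. With the replicate number as a block, 0 members, 2 replacement histone genes and 1 supply factor were at an unadjusted p under 0.05.

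The median log2 fold change of the members tested, -0.08, ranged from -0.10 to 0.18 with a library left out, positive without control replicate 2. The log2 ratio of the summed level, -0.04, was 0.0023 after quantile normalization and ranged from -0.10 to 0.029 with a library left out. In alternatives chosen after seeing the data, the median was 0.021 with H4C11 and H4C12 summed to 1 row, the summed ratio was -0.11 without both genes, and the replicate spread without them was 0.34 in control, from 0.09, and 0.29 in KO+OE. Single members changed sign when a library was left out, namely H1-1 (-0.083 to 0.63), H2AC19 (-1.21 to 0.10), H2AC20 (-0.21 to 0.77), H2BC12 (-0.33 to 0.18) and H4C12 (-4.15 to 0.029), as did NUDT21 (-0.012 to 0.066). The 51 members listed above 0 became 25 when all 4 libraries were required, 17 at 1 TPM or more in at least 1 library, and 49 to 51 with a library left out. The replicate spread in KO+OE, 0.72, was 0.31 with a pseudocount of 5 and 2.13 with a filter at a mean of 5 TPM. The cause of these shifts was not tested. With no read counts, no counting error could be attached to any low value.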

Other observations

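Of the 12 omitted histone pseudogenes, 3 were listed above 0. H2BC20P was at 0.58 and 2.0 TPM in control, against 1.05 and 0.19 TPM in KO+OE, and H2BC19P at 1.22 and 0.23 TPM and then 0.34 and 0.95 TPM, so the libraries of each group overlapped. H2AC10P was at 0.81 TPM in KO+OE replicate 1 and at 0 in the other 3 libraries.

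H2AW, an H2A gene on chromosome 1 whose newer symbol lies outside the naming used to choose the members, was listed at 10.3 and 13.1 TPM in control, against 11.3 and 9.93 TPM in KO+OE. In every library that is above the sum of the 16 H2A members. That sum was 9.26 and 9.39 TPM in control, against 5.72 and 9.14 TPM in KO+OE. The class and total sums given above leave out H2AW. The log2 fold change, -0.12, had an adjusted p = 0.965 (limma).

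Among the supply factors, CPSF2, a subunit of the cleavage complex that acts on both histone and polyadenylated mRNAs, was at 1.22 and 1.31 TPM in control, at 10.2 TPM in KO+OE replicate 1 and at 0.84 TPM in KO+OE replicate 2. A single library set its log2 fold change, which had an adjusted p = 0.948 (limma).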
